A study of Mus musculus with 6 samples.

Results

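Nonclassical monocytes, the blood monocytes with little Ly6C that crawl along the inside of vessels, were examined in the lungs of 6 mice with bleomycin-induced fibrosis that had received either ipilimumab, an antibody that blocks human CTLA4, or an IgG1 isotype control. They were selected by rule from the single-cell matrices. Quality-filtered barcodes had at least 1000 UMIs (unique molecular identifiers, 1 for each captured RNA molecule), at least 500 genes and at most 10% mitochondrial UMIs. A barcode was then taken when at least 2 of the 4 genes Ace, Treml4, Cd300e and Adgre4 had a UMI, the C1q genes summed to fewer than 5 UMIs, S100a8 and S100a9 together made up fewer than 50 of each 10000 UMIs, and Cd79a and Cd3e were at 0. The rule took 961 of 25704 quality-filtered barcodes, or 3.74%. These measured values chose the barcodes, so the levels of the gate genes describe the selection and are not results.

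All 6 animals were male C57BL/6 mice aged 12 weeks whose Ctla4 gene carries exons 2 and 3 of human CTLA4, so that the human antibody binds. All 6 had bleomycin by the oropharyngeal route at 1.25 U/kg in 2 doses given 2 weeks apart. From day 21 after the second dose, 3 mice were injected intraperitoneally with IgG1 and 3 with ipilimumab, both at 5 mg/kg, for 4.5 weeks. No lung without bleomycin and no mouse with murine Ctla4 was compared here, so every difference below is between antibodies in injured knock-in lungs. The right lung of each mouse was digested and made into 1 droplet library, and each mouse is 1 replicate. The libraries held 42665284, 47919257 and 37666042 UMIs for IgG1 replicates 1 to 3 and 47897924, 48497310 and 48612412 UMIs for ipilimumab replicates 1 to 3. The library of ipilimumab replicate 1 stood apart, with 22056 barcodes of 100 or more UMIs against 4834 to 6230 in the other 5. Values of single mice are given below in this order, IgG1 first.

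Nonclassical monocytes derive from classical monocytes, which carry Ly6C and the chemokine receptor CCR2 and leave the blood for inflamed tissue. The conversion depends on the nuclear receptor NR4A1, and survival depends on the M-CSF receptor encoded by Csf1r and on the fractalkine receptor CX3CR1. In blood the cells clear debris from the endothelium and carry the Fc receptor FCGR4, which binds antibody-coated targets. In the lung they lie mostly within capillaries, so a lung digest can hold blood monocytes as well as monocytes of the tissue.

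The label was first set against genes that the rule did not use, and the selected barcodes fell into 2 sets. Of the 961, 254 had 10 or more UMIs of 7 alveolar macrophage genes (Marco, Krt79, Ear1, Fabp1, Car4, Siglecf and Plet1), 2 had 5 to 9, 6 had 3 or 4, 76 had 1 or 2, and 623 had 0. Barcodes with 5 or more of these UMIs are called AM-rich below (256 barcodes, 26.6% of those selected), and the other 705 are called AM-low. The AM-rich barcodes were large, with a median of 24593.5 UMIs and 5165.5 genes against 8329 UMIs and 2722 genes in the AM-low barcodes, and they supplied 50.1% of the UMIs summed over all selected barcodes. Their share of those UMIs was 54.8%, 65.0% and 37.1% in the IgG1 mice and 32.3%, 50.9% and 58.6% in the ipilimumab mice.

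A set of 4 genes known for nonclassical monocytes was higher in the AM-low barcodes than in the AM-rich ones. The median per barcode of Nr4a1, Spn, Fcgr4 and Cx3cr1 together was 18.2 UMIs per 10000 in AM-low and 2.80 in AM-rich barcodes. Spn, which encodes the surface protein CD43 used to sort these cells, averaged 300 CPM (UMIs of the gene per 1000000 UMIs) over the 6 mice in AM-low barcodes and 19.7 CPM in AM-rich barcodes. The name nonclassical monocyte is therefore kept for the 705 AM-low barcodes, while the 256 AM-rich barcodes passed the rule with alveolar macrophage genes and low levels of these 4 genes. A longer list of 16 further marker genes separated the sets less. Its sum averaged 8757 CPM with IgG1 and 10134 CPM with ipilimumab in AM-low barcodes, against 5921 and 5591 CPM in AM-rich ones. Classical monocytes held 4401 and 4762 CPM. Of that list, Ear2 was higher in AM-rich barcodes, at 805 CPM against 231 CPM. Of all 3787 quality-filtered barcodes with 5 or more alveolar macrophage UMIs, 6.76% passed the rule, and their median depth was 21159 UMIs.

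**Figure D1:**
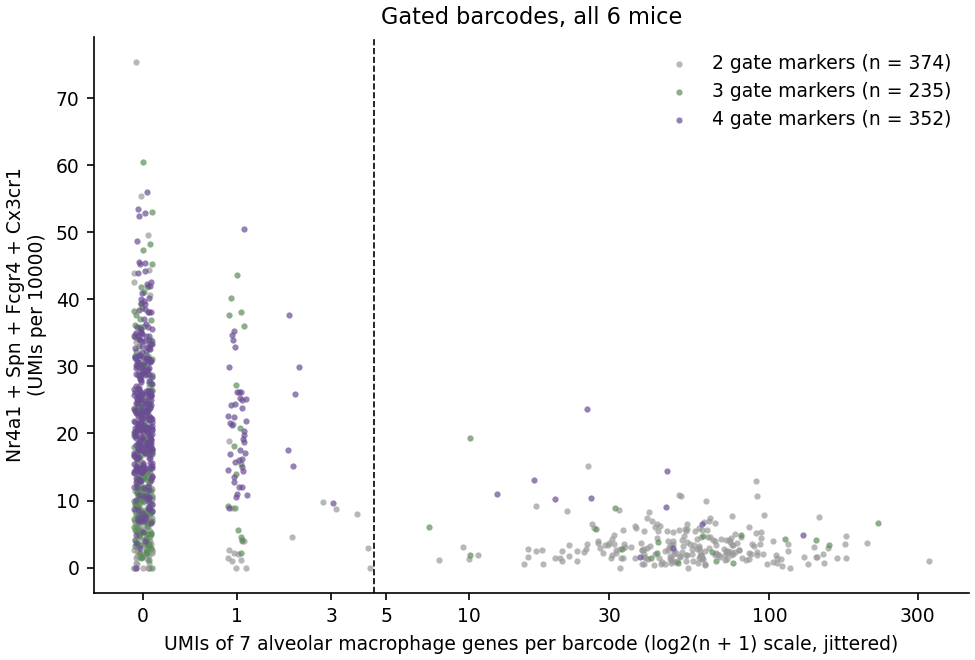
Each point is 1 of the 961 selected barcodes of the 6 mice, with UMIs of 7 alveolar macrophage genes on a log2(n + 1) axis and the UMIs of Nr4a1, Spn, Fcgr4 and Cx3cr1 per 10000 on the vertical axis, coloured by the number of gate genes with a UMI. The dashed line separates 705 AM-low from 256 AM-rich barcodes, and few points lie near it.

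The gate genes, whose UMIs chose the barcodes, were spread as follows. Adgre4, an adhesion receptor of the EMR family, had a UMI in 96.6% of AM-low and 19.5% of AM-rich barcodes. Ace, which encodes angiotensin-converting enzyme, had one in 88.5% and 81.2%, Treml4, a receptor that binds dead cells, in 85.5% and 82.8%, and Cd300e, an activating receptor, in 56.7% and 32.4%. The commonest AM-rich combination was Ace with Treml4 alone, in 137 barcodes. The 4 genes lie at chr11:105967945-105989964 (Ace), chr17:48264295-48275360 (Treml4), chr11:115051917-115062177 (Cd300e) and chr17:55749984-55853662 (Adgre4) of GRCm38. In T cell barcodes (2 or more Cd3e UMIs, fewer than 5 alveolar macrophage UMIs, 3910 barcodes, median 9458.5 UMIs) a UMI of each gate gene was found in 0.256% to 1.02%, and 0.230% had at least 2. Free RNA and doublets were not told apart there.

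The barcodes next to each threshold were as follows. With exactly 2 gate genes (374 barcodes, inside), 60.4% were AM-rich, Nr4a1 was 283 CPM and Spn 37.0 CPM, and with 1 gate gene and all other limits met (2185 barcodes, outside), 57.8% were AM-rich, Nr4a1 was 251 CPM and Spn 17.7 CPM. The 17 barcodes left out with 50 to 100 UMIs of S100a8 and S100a9 per 10000 had Nr4a1 at 999 CPM and Spn at 181 CPM, near the 831 CPM and 150.2 CPM of the 12 barcodes with 25 to 50. The C1q limit divided 3 barcodes outside (5 to 9 UMIs, Fcgr4 123 CPM) from 16 inside (1 to 4 UMIs, Fcgr4 69.5 CPM), and 124 barcodes were left out by a UMI of Cd79a or Cd3e alone. Doublets were not called. Of the 961 selected barcodes, 415 had 2 or more UMIs from a marker list of endothelial, type 2, airway, fibroblast, T, B, NK cell or platelet genes. The share was 36.9% to 46.1% per mouse, and free RNA and doublets were not told apart. Of 25635 distinct quality-filtered barcode sequences, 68 occurred in at least 2 libraries, and no selected barcode was selected in 2 libraries.

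The AM-low barcodes were compared by level with 2 neighbouring myeloid types gated in the same libraries, classical monocytes (268 barcodes) and C1q macrophages (92 barcodes). These differences are descriptions, since the gates were built from genes of the same barcodes. Nr4a1, at chr15:101254269-101274795, averaged 920.0 CPM in AM-low barcodes, with a range of 673 to 1112 over the mice, against 230 CPM in classical monocytes and 209 CPM in C1q macrophages. Every mouse's AM-low value lay above every value of both other types. Free RNA, read from barcodes of 10 to 100 UMIs, held Nr4a1 at 891 CPM, so its level alone does not mark a cell. Spn, at 300 CPM, compared with 38.9 CPM and 14.5 CPM, and with 63.0 CPM in free RNA.

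Some other genes of the type were higher in AM-low barcodes than in classical monocytes. Pou2f2, a transcription factor of the octamer family, averaged 711 CPM against 135 CPM in classical monocytes, and Itgal, the alpha chain of the integrin LFA-1, 923 CPM against 198 CPM. Fcgr4 averaged 192 CPM against 21.4 CPM. Cebpb, the most abundant of the 16 further marker genes, was similar, at 2896 CPM against 2751 CPM. In classical monocytes without AM-rich barcodes it was 2975 CPM. Cx3cr1 did not separate the cells from macrophages, at 220.0 CPM in AM-low barcodes, 113 CPM in classical monocytes and 232 CPM in C1q macrophages, and the ranges over mice overlapped. Ly6c2 and Ccr2, which classical monocytes carry, were present in AM-low barcodes at 209 CPM and 179 CPM, below the 711 CPM and 503 CPM of classical monocytes.

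**Figure D2:**
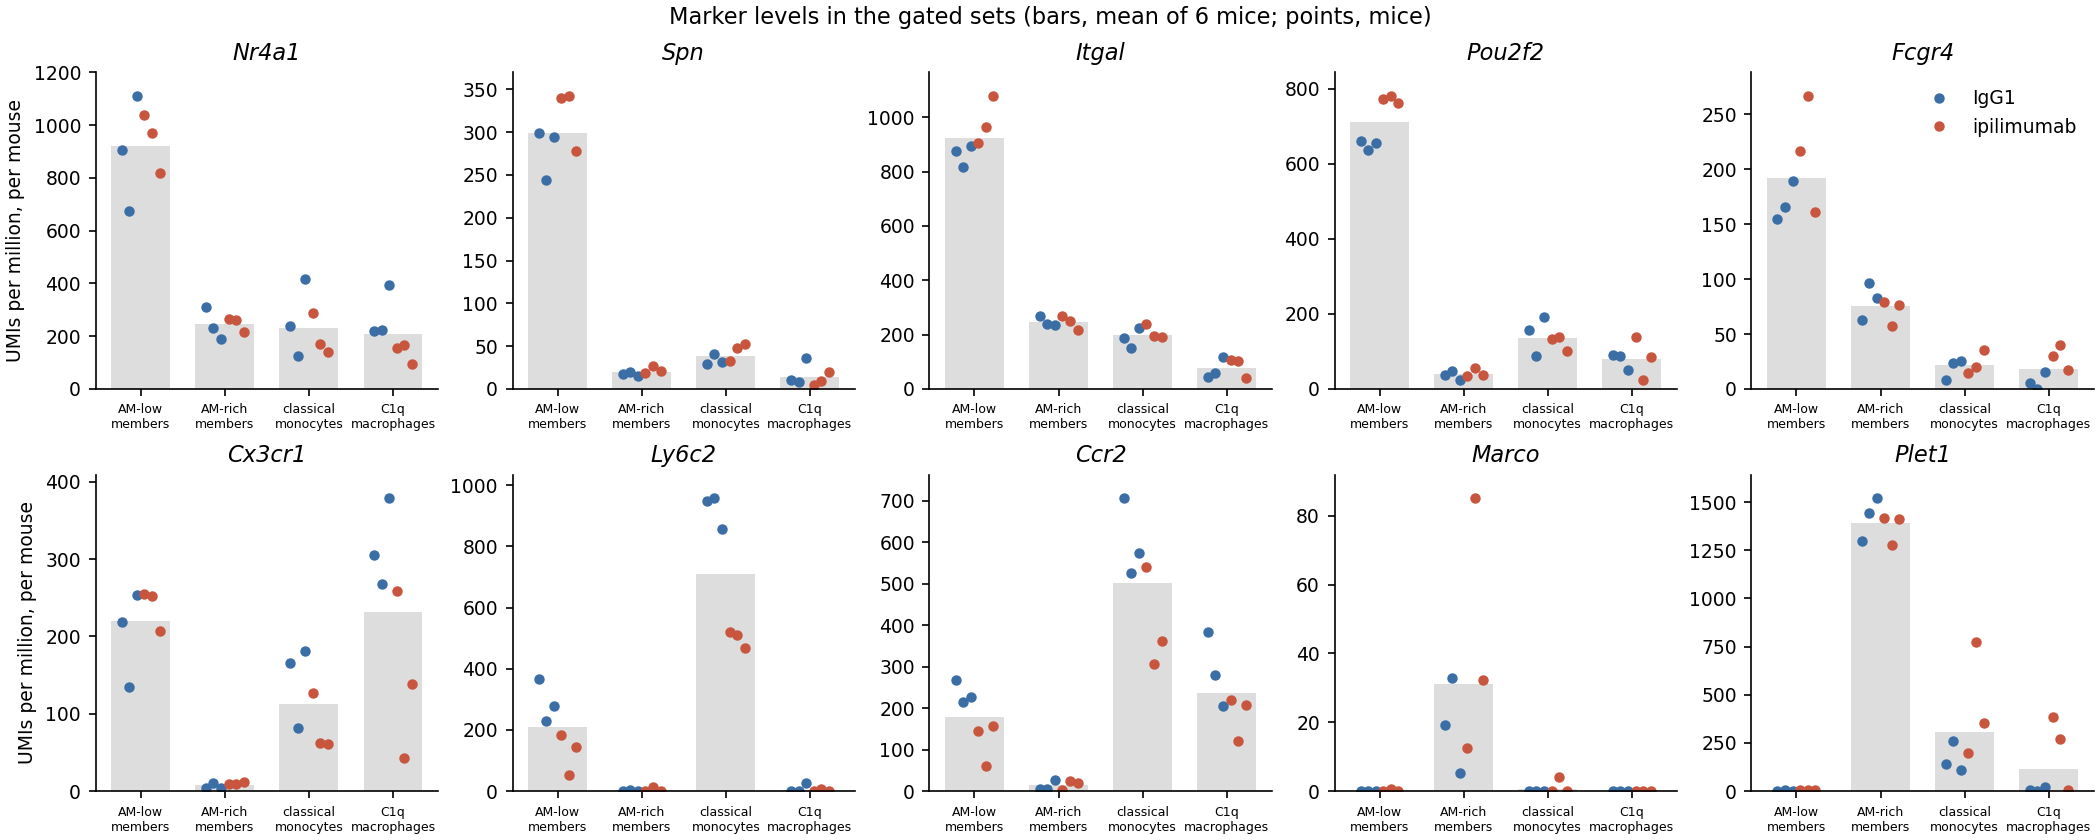
Levels of 10 genes in CPM for AM-low and AM-rich selected barcodes, classical monocytes and C1q macrophages, with bars at the mean of 6 mice and points for IgG1 (blue) and ipilimumab (red) mice. Nr4a1, Spn, Itgal and Pou2f2 are highest in AM-low barcodes in every mouse, Plet1 and Marco, which belong to the genes that divided the sets, in AM-rich barcodes.

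Over all 961 barcodes the highest median log2 ratios to classical monocytes outside the gate were Dusp16 (3.36), a phosphatase of the JNK and p38 kinases, and Slc12a2 (3.14), the sodium-potassium-chloride cotransporter. The lowest were F13a1 (-3.03), the coagulation factor XIII A chain, Ccl2 (-2.90), a ligand of CCR2, Ly6c2 (-2.61) and Ccr2 (-2.38). These ratios use a pseudocount of 10 CPM. Lepr and Colec12, which ranked among the highest, came from the AM-rich barcodes, where they averaged 234 CPM and 196 CPM against 2.40 CPM and 2.80 CPM in AM-low barcodes. With AM-low barcodes in both gates, Pparg, a lipid-sensing nuclear receptor, Cd36, a scavenger receptor, Pecam1, the adhesion molecule CD31, and Bcl2, an inhibitor of apoptosis, joined the higher genes, with median log2 ratios of 3.90, 3.82, 3.36 and 2.96. All 4 were higher in each of the 6 mice.

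The first treatment question was whether nonclassical monocytes were more or less frequent with CTLA4 blockade. Selected barcodes numbered 107, 168 and 139 in the IgG1 mice and 180, 233 and 134 in the ipilimumab mice. They made up 2.36%, 3.89% and 4.16% of quality-filtered barcodes with IgG1 and 3.48%, 5.601% and 3.21% with ipilimumab, and the groups overlapped. The means were 3.47% ± 0.968 (SD, n = 3) and 4.10% ± 1.31 (SD, n = 3), and the two-sided exact permutation test gave p = 0.6, where 3 mice against 3 cannot go below 0.1. The 95% Wilson interval of a single mouse was, for example, 1.96% to 2.85% for IgG1 replicate 1 and 4.94% to 6.34% for ipilimumab replicate 2, and covers counting error only. The order of the 2 means turned around without ipilimumab replicate 2, at a log2 ratio of -0.05 against 0.24 with it. With each barcode thinned to 1000 UMIs before the gate genes were counted, the shares were 0.640%, 0.856% and 1.23% with IgG1 and 1.59%, 1.90% and 0.981% with ipilimumab, a log2 ratio of 0.71 (exact permutation p = 0.2), and the groups overlapped. The median depth of selected barcodes averaged 12185 UMIs with IgG1 and 9704.5 UMIs with ipilimumab.

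The AM-low barcodes gave the same picture. Their shares were 1.63%, 2.29% and 3.29% with IgG1 and 2.98%, 4.18% and 2.25% with ipilimumab, with means of 2.40% ± 0.834 (SD, n = 3) and 3.14% ± 0.977 (SD, n = 3), and the exact permutation p was 0.5. A difference in the share was thus not detectable with these mice.

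Classical monocytes numbered 50, 74 and 38 in the IgG1 mice and 35, 27 and 44 in the ipilimumab mice, which overlapped. As a share of barcodes they were lower in every ipilimumab mouse than in any IgG1 mouse. They made up 1.10%, 1.71% and 1.14% of barcodes with IgG1 and 0.677%, 0.649% and 1.05% with ipilimumab, groups that did not overlap. The means of 1.32% ± 0.343 and 0.793% ± 0.225 (SD, n = 3 each) gave an exact permutation p of 0.1, the smallest this design allows. The number of selected barcodes for each classical monocyte was 2.14, 2.27 and 3.66 with IgG1 and 5.14, 8.63 and 3.05 with ipilimumab. The groups overlapped in ipilimumab replicate 3 (exact permutation p = 0.2).

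**Figure D3:**
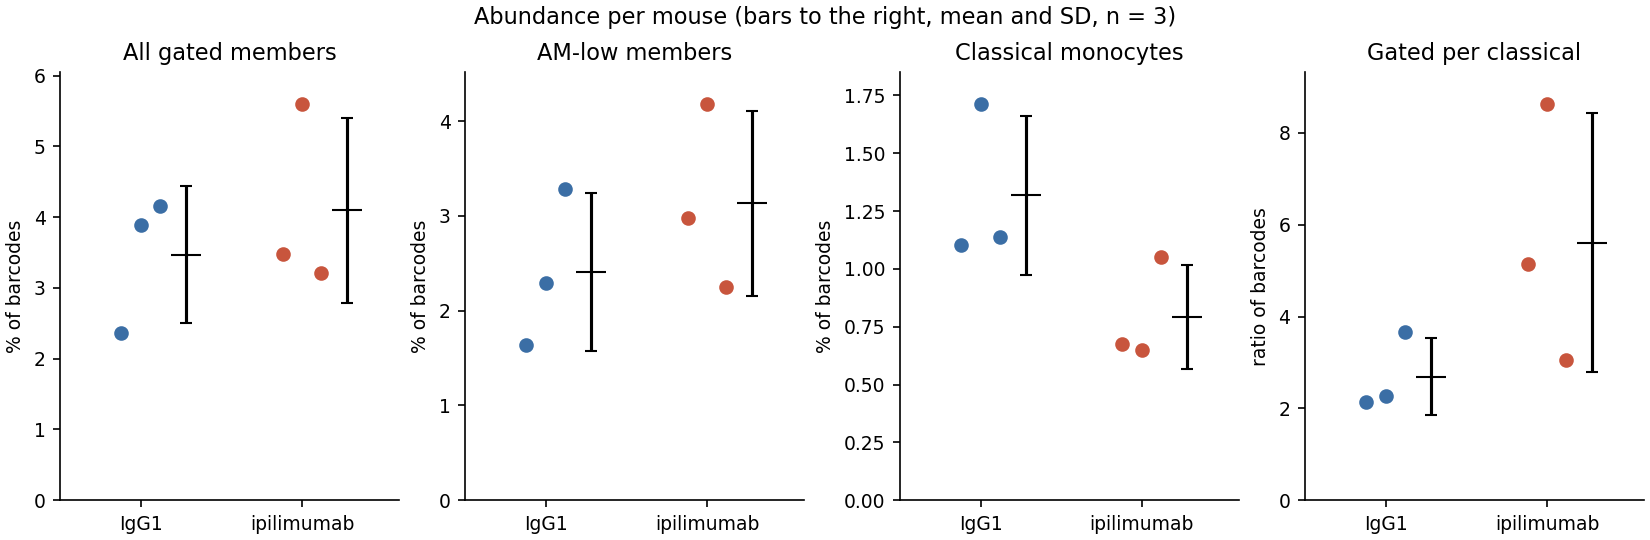
Shares of quality-filtered barcodes in percent for all selected barcodes, AM-low barcodes and classical monocytes, and the number of selected barcodes for each classical monocyte, with 1 point per mouse and the mean and SD (n = 3) to the right. The groups are apart only for classical monocytes, where all 3 ipilimumab mice lie below all 3 IgG1 mice.

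Gene expression was then compared between ipilimumab and IgG1 on UMIs summed over the selected barcodes of each mouse. In edgeR's quasi-likelihood test with Benjamini-Hochberg adjustment none of 9759 tested genes was called, a background of 0%, where a gene counted as called when its adjusted p was under 0.05 and its log2 fold change was beyond 0.3 in either direction. An unadjusted p under 0.05 was found for 545 genes, and DESeq2 called 13. Levels in these comparisons are CPM scaled by edgeR's TMM factors. In 5.52% of tested genes all 3 ipilimumab mice lay above all 3 IgG1 mice, and in 4.99% all lay below.

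Among the 10 leading genes over all 961 barcodes were several that endothelial cells express. Rhoj, a small GTPase of endothelial cells, was at 9.22, 8.38 and 3.58 CPM with IgG1 and 31.2, 33.9 and 44.6 CPM with ipilimumab. Its log2 fold change was 2.37 ± 0.31 (SE, n = 3 each), with an adjusted p of 0.107 in edgeR's test, so it was not called. Timp3, Ramp2, Ly6c1 and Cd34, also expressed by endothelium, stood beside it with log2 fold changes of 2.73, 2.04, 2.18 and 2.85. The summed level of 6 endothelial marker genes in the selected barcodes was 152, 216 and 134 CPM with IgG1 and 343, 377 and 248 CPM with ipilimumab, all 6 genes were detected, and Calcrl was the most abundant at 89.4 CPM. In AM-rich barcodes this sum was 141, 224 and 276 CPM against 628, 410.4 and 382 CPM. In AM-low barcodes the groups overlapped, at 164, 201 and 49.8 CPM against 207, 342 and 59.4 CPM.

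Txnip, which binds thioredoxin, also ranked high over all selected barcodes. It was at 223, 189 and 195 CPM with IgG1 and 93.03, 97.3 and 114 CPM with ipilimumab, but at 39.3 to 57.1 CPM in AM-low barcodes, where the groups overlapped. Since the AM-rich barcodes held such a large part of the UMIs, the comparison was repeated on the AM-low barcodes, a choice made after the values were seen. Of the 10 leading genes only Tnip3 and Aif1 had groups that did not overlap in the AM-low barcodes too.

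In the AM-low barcodes no gene of 7882 was called by edgeR's test (0%), 703 had an unadjusted p under 0.05, and the smallest adjusted p was 0.120. DESeq2 with the same threshold called 45 of the 2275 genes that it gave an adjusted p (1.98%), 24 of them higher with ipilimumab. In 7.04% of the 7882 genes the 3 ipilimumab mice all lay above the IgG1 mice, and in 7.7% all lay below, and the counts for gene lists below are read beside these shares. The edgeR values are therefore given as levels that differed, not as called changes. Of the lists, class II, classical monocyte and interferon-stimulated genes had the lowest medians, and those of Fc receptor, immediate early, complement, cytokine and interferon gamma genes were also below 0, while Cd274, Tnip3 and Tcf7l2 were higher with ipilimumab in all 3 mice.

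Classical monocyte genes lay on one side. All 12 listed genes had a fold change below 0, with a median log2 fold change of -0.75 (-1.02 to -0.52 as single mice were left out) against -0.0031 over all tested genes, and 7 of 12 had groups that did not overlap, all lower with ipilimumab. Ly6c2, the Ly6C antigen itself, was at 376, 240.4 and 285 CPM with IgG1 and 182, 51.6 and 151 CPM with ipilimumab (log2 fold change -1.24 ± 0.35, edgeR adjusted p = 0.33). In classical monocytes, whose gate used Ly6c2, its level was also lower without overlap, at 949, 959 and 858 CPM against 521, 511 and 469 CPM. Those sums include AM-rich classical barcodes, 4, 10 and 1 with IgG1 and 4, 9 and 8 with ipilimumab. AM-rich selected barcodes held Ly6c2 at 3.33 CPM, and the part of AM-rich barcodes in the classical difference was not tested. In AM-low barcodes Ccr2 was at 275, 225 and 232 CPM against 142, 59.9 and 165 CPM, and F13a1 at 190.5, 169 and 139 CPM against 75.3, 29.3 and 113 CPM. For these 3 genes in AM-low barcodes ipilimumab replicate 2 was the lowest mouse and no ipilimumab mouse reached the IgG1 range.

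Plac8, an intracellular protein of myeloid cells, was at 1911, 2298 and 1826 CPM with IgG1 and 1161, 910.4 and 1447 CPM with ipilimumab, a log2 fold change of -0.78 ± 0.16 (SE, n = 3 each). Its edgeR adjusted p was 0.162, and DESeq2 called it. Lyz2, which encodes lysozyme, was at 10344, 10716 and 10017 CPM against 7116, 7056 and 8408 CPM, and was also called by DESeq2 only. Vcan and Fn1, which encode matrix proteins, completed the 7, with log2 fold changes of -1.48 and -1.12. Without ipilimumab replicate 2 these were -0.92 and -0.63, and Fn1 was at -0.43 with at least 3 of the 4 gate genes required. Over all 961 barcodes 4 of these list genes had groups that did not overlap (F13a1, Vcan, Mgst1 and Plac8), all lower, and the median was -0.45.

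The same UMIs were also counted by barcode, a measure chosen after the gene values were seen that describes how they were spread and is no further test. The share of AM-low barcodes with a UMI in at least 2 of Ly6c2, Ccr2, F13a1 and Vcan was 31.1%, 31.3% and 34.5% with IgG1 and 14.3%, 7.47% and 18.1% with ipilimumab. All 3 ipilimumab mice lay below all 3 IgG1 mice. The means were 32.3% ± 1.94 and 13.3% ± 5.38 (SD, n = 3 each). With every barcode thinned to 3000 UMIs, leaving out 4 to 23 shallower barcodes per mouse, the shares were 20.3%, 18.1% and 22.6% against 9.92%, 3.55% and 10.6%. In T cell barcodes, where F13a1 and Vcan should be absent and Ly6c2 and Ccr2 can be expressed, the unthinned share was 5.27% ± 0.773 with IgG1 and 5.17% ± 0.779 with ipilimumab. The median depth of AM-low barcodes was 7799.5, 8694 and 10941 UMIs with IgG1 and 8271, 7106 and 8078 UMIs with ipilimumab.

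The gate genes are given by antibody as a description only, since their UMIs chose the barcodes. Treml4 was at 324, 337 and 277 CPM with IgG1 and 435, 432 and 469 CPM with ipilimumab and Adgre4 at 686, 515 and 737 CPM against 796, 937 and 897 CPM. Ace was at 379, 398 and 439 CPM against 411, 443 and 463 CPM, which overlapped. Nr4a1, which the rule did not use, was at 930.1, 704 and 1133 CPM against 1023, 967 and 860.2 CPM, and the groups overlapped.

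Of 17 further genes of the type, 3 had groups that did not overlap, all higher with ipilimumab, and the median log2 fold change was 0.17. Over all 961 barcodes 0 of the 17 were higher and Ear2 was lower without overlap, with a median of 0.17. With at least 3 of the 4 gate genes required, only Tcf7l2 separated the groups, 10 of 17 were above 0 and the median was 0.03. Tcf7l2, a transcription factor of the Wnt pathway, was at 535, 516 and 546 CPM with IgG1 and 801, 779.7 and 879.7 CPM with ipilimumab, a tight pair of groups with a log2 fold change of 0.62 ± 0.11 (SE). Pou2f2 was at 678, 666 and 669 CPM against 761, 778 and 799 CPM. Pglyrp1, which binds bacterial peptidoglycan, was at 183, 145 and 191 CPM against 244, 332 and 221 CPM. Tcf7l2 had an edgeR adjusted p of 0.12 and was called by DESeq2, while over all 961 barcodes its log2 fold change was -0.05. Spn (306, 255 and 299.9 CPM against 335, 341 and 292 CPM) and Cx3cr1 (224, 142 and 259 CPM against 251, 251 and 217 CPM) overlapped.

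Cd274 encodes PD-L1, the ligand of the inhibitory receptor PD-1, and lies at chr19:29367455-29388095. It was at 165, 159.5 and 174 CPM with IgG1 and 280.2, 375 and 295 CPM with ipilimumab. The lowest ipilimumab mouse lay well above the highest IgG1 mouse, and the log2 fold change was 0.93 ± 0.15 (SE, n = 3 each), with an edgeR adjusted p of 0.12 and a call by DESeq2. Over all 961 barcodes Cd274 was at 224, 205 and 225 CPM against 312, 318 and 258 CPM, where AM-rich barcodes, with a mean of 280 CPM, also expressed it. In classical monocytes its mean level was 91.3 CPM.

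The other genes listed for costimulation and inhibition, which are ligands and receptors, showed no common direction. Of 12 tested, 2 were higher (Cd274 and Cd244a) and 4 lower (Cd40, Lgals9, Vsir and Cd48) without overlap between groups. The median was 0.10, with a range of -0.15 to 0.15 as single mice were left out. Vsir, which encodes the inhibitory ligand VISTA, was at 167, 152 and 159 CPM with IgG1 and 130.3, 93.7 and 129 CPM with ipilimumab. Lgals9, which encodes galectin-9, a ligand of TIM-3, was at 74.6, 60.7 and 49.98 CPM against 47.8, 21.0 and 29.9 CPM, a log2 fold change of -0.87 that was -0.19 over all 961 barcodes. Only 2 of the 6 genes listed for CTLA4 and its partners had enough counts to be tested, and neither separated the groups.

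Tnip3 had the smallest p in AM-low barcodes. It encodes a binding partner of the NF-κB regulator A20 and lies at chr6:65525313-65634040. It was at 50.8, 60.7 and 66.1 CPM with IgG1 and 121, 217 and 183 CPM with ipilimumab, a log2 fold change of 1.53 ± 0.23 (SE, n = 3 each) with an edgeR adjusted p of 0.12. Over all 961 barcodes it was higher in all 3 ipilimumab mice too, at 29.8, 25.9 and 42.5 CPM against 82.8, 111 and 80.4 CPM. C1q macrophages held Tnip3 at 352 CPM, above the 115 CPM of AM-low barcodes. The listed C1q macrophage markers together were at 1397, 1353.5 and 1525 CPM with IgG1 and 1573, 1604 and 1772 CPM with ipilimumab in AM-low barcodes, with Apoe most abundant at 1505 CPM. The part of such barcodes in the Tnip3 difference was not tested.

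Several other leading genes were higher. Dusp16 was at 1002, 1055 and 1138 CPM with IgG1 and 1434, 2096 and 1962 CPM with ipilimumab. Cd82, a tetraspanin, was at 73.0, 78.7 and 87.9 CPM against 151, 137 and 155 CPM. Rps6ka2, a ribosomal S6 kinase, and Hsd11b1, which regenerates active glucocorticoid, had log2 fold changes of 1.49 and 1.05. In each of these 4 genes all ipilimumab mice lay above all IgG1 mice, with an edgeR adjusted p of 0.12.

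Among the leading genes lower with ipilimumab was Ms4a4c, a membrane protein of the MS4A family. It was at 181, 220.2 and 166 CPM with IgG1 and 100.2, 105 and 83.2 CPM with ipilimumab (log2 fold change -0.96 ± 0.16, edgeR adjusted p = 0.12). Ms4a4c was also among the genes lower in selected barcodes than in classical monocytes, with a median log2 ratio of -2.07. Wfdc17 was at 297, 338 and 190.2 CPM against 137, 106 and 123 CPM, a log2 fold change of -1.16 that was -0.16 over all 961 barcodes. Soga1 was at 44.4, 25.8 and 49.2 CPM against 8.51, 9.56 and 14.3 CPM, a log2 fold change of -1.94 that was -0.72 over all 961 barcodes. Aif1, which encodes the macrophage protein IBA1, was at 105, 137 and 93.5 CPM against 33.4, 49.7 and 59.8 CPM.

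**Figure D4:**
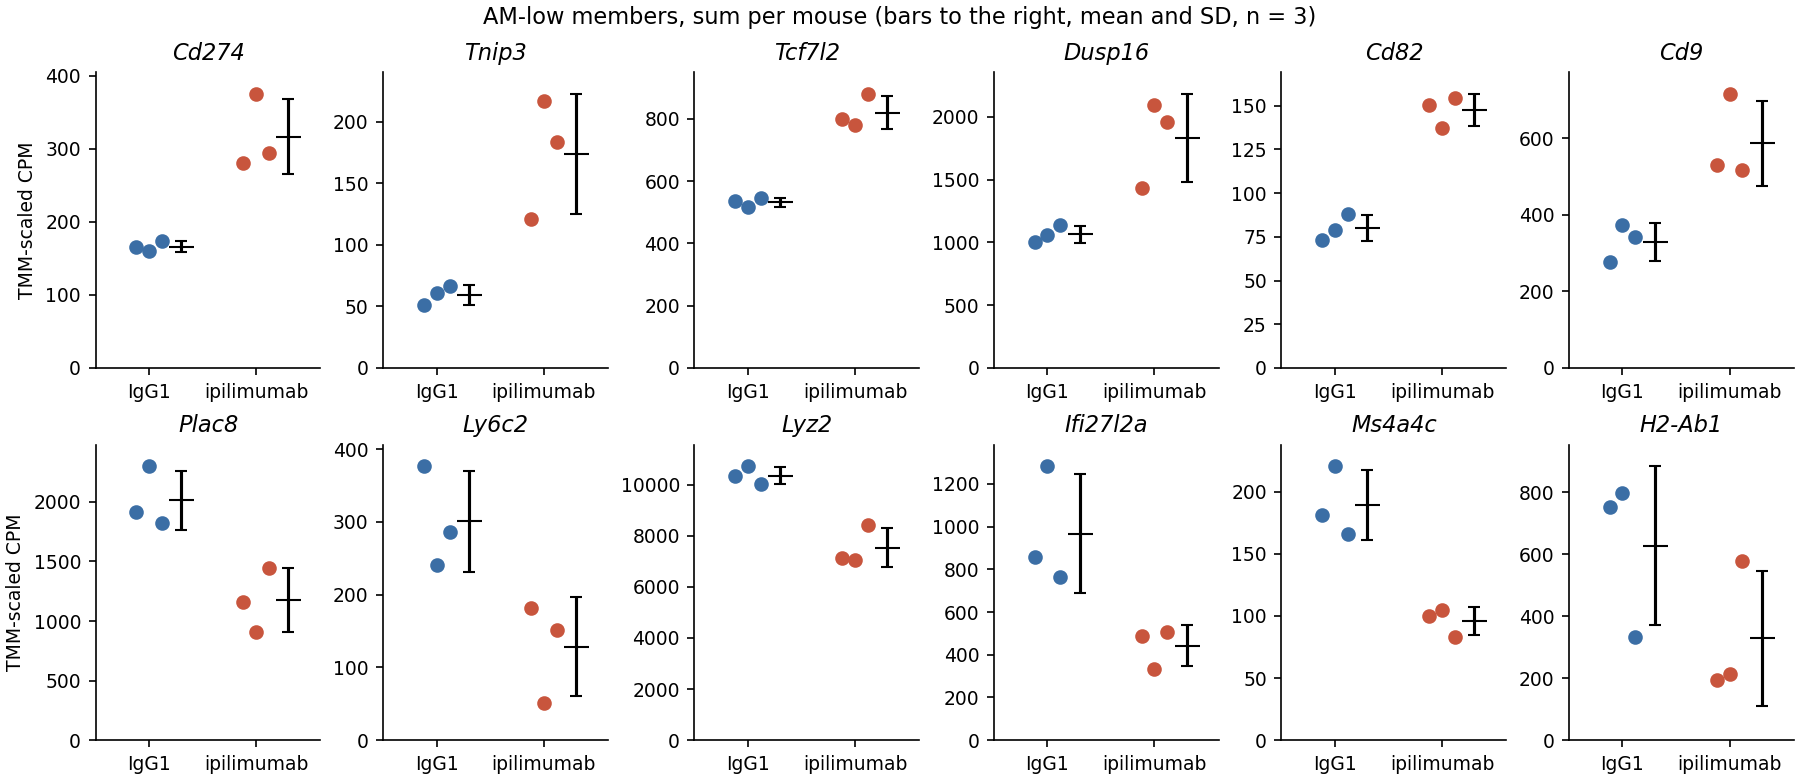
TMM-scaled CPM of 12 genes in AM-low barcodes summed per mouse, with 1 point per mouse for IgG1 (blue) and ipilimumab (red) and the mean and SD (n = 3) to the right. The upper 6 genes are higher and the lower 6 have lower means with ipilimumab, without overlap of the groups except for H2-Ab1, where IgG1 replicate 3 and ipilimumab replicate 3 cross.

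The class II pathway, which loads and displays peptides to CD4 T cells, had the lowest median. All 8 tested genes had fold changes below 0, with a median log2 fold change of -0.91 that ran from -1.55 to -0.68 as single mice were left out, but only Ifi30, a lysosomal thiol reductase, had groups that did not overlap. H2-Ab1 was at 752, 795 and 332 CPM with IgG1 and 193, 213 and 578 CPM with ipilimumab. Cd74, the invariant chain, was at 2613, 3286 and 1449 CPM against 757, 1011 and 2188 CPM. The mice marked replicate 3 crossed in both genes, so the groups overlapped (log2 fold change of H2-Ab1 -0.96 ± 0.40, edgeR adjusted p = 0.524). With at least 3 of the 4 gate genes required, 4 of 8 genes (H2-Aa, H2-Ab1, H2-DMa and Cd74) were lower without overlap and the median was -0.95. Of all 7714 genes tested in that gate, 452 were lower and 433 higher without overlap. Over all 961 barcodes none of 9 class II genes separated the groups and the median was -0.40. Counted by AM-low barcode, the median of class II UMIs per 10000 was 4.38, 6.34 and 3.19 with IgG1 and 2.46, 1.96 and 2.94 with ipilimumab, which did not overlap.

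Interferon-stimulated genes were lower in 11 of 12 tested, with a median log2 fold change of -0.54. In 3 of the 12, all lower, the groups did not overlap. Ifi27l2a was at 859, 1282 and 762 CPM with IgG1 and 486, 332 and 507 CPM with ipilimumab (log2 fold change -1.14 ± 0.21, edgeR adjusted p = 0.12). Bst2, which encodes tetherin, was at 139.7, 128 and 117 CPM against 79.2, 66.9 and 72.8 CPM, a log2 fold change of -0.80 ± 0.16. Ifitm3, an antiviral membrane protein, was at 2305, 2617 and 2020.2 CPM against 1803, 1685 and 1739 CPM. DESeq2 called all 3. Over all 961 barcodes the log2 fold changes of Ifi27l2a, Bst2 and Ifitm3 were -0.83, -0.41 and -0.19. They are abundant genes of the list, while the known inducible genes Isg15 and Cxcl10 did not separate the groups.

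The promoters of these lists were searched for the interferon-stimulated response element, written TTTCNNTTTC and read on both strands within the 250 bases before the start of the gene in RefSeq on GRCm38.p6. It was found before 936 of 27025 genes, or 3.46%. Of the 12 interferon-stimulated genes with a promoter in the set 7 held it, or 58.3%, against 0 of 9 classical monocyte genes, 0 of 4 gate genes, 1 of 13 further nonclassical genes (Fcgr4) and 1 of 9 class II genes (Ctss). Of the 3 interferon-stimulated genes that separated the groups Bst2 held the element, Ifitm3 was not among the matches, and the promoter of Ifi27l2a was not searched. It lies on the minus strand, and 2 overlapping matches begin 124 and 130 bases before its start, at chr8:71537577-71537606 and chr8:71537583-71537612 with 10 flanking bases on each side. They are shown on the strand of the gene, where the element reads GAAANNGAAA, with the matched letters in capitals, because the levels of Bst2 separated the groups.
Bst2, match at 124: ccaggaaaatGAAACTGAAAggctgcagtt
Bst2, match at 130: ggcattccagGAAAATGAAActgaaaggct
A match describes the letters only, and binding was not measured.

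Of 15 interferon gamma response genes, 3 were lower without overlap (Gbp3, Tap1 and Psmb8) and none higher, and the median log2 fold change was -0.25, with a range of -0.44 to 0.0018 as single mice were left out. Gbp3, an interferon-induced GTPase, was at 17.5, 30.3 and 21.0 CPM with IgG1 and 10.5, 8.93 and 7.80 CPM with ipilimumab. Psmb8, a subunit of the immunoproteasome, was at 251, 279.8 and 215 CPM against 168, 181 and 168 CPM, a log2 fold change of -0.52 that was -0.18 over all 961 barcodes. The median of this list over all 961 barcodes was 0.02.

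Of 6 Fc receptor genes, 2 were lower and 1 higher without overlap, and the median log2 fold change was -0.36, with a range of -0.44 to -0.24 as single mice were left out. The activating receptor Fcgr4 was at 159, 173 and 193 CPM with IgG1 and 213, 266 and 169 CPM with ipilimumab, which overlapped. Fcgr2b, the inhibitory receptor, was at 114, 143 and 98.3 CPM against 66.8, 58.7 and 78.0 CPM, and Fcgr3, an activating receptor, at 149, 184 and 176 CPM against 114, 77.8 and 134 CPM. Both were lower without overlap, with edgeR adjusted p-values of 0.245 and 0.365. Fcgrt, the neonatal receptor that recycles antibody, was higher without overlap at 36.5, 40.4 and 40.3 CPM against 52.4, 60.6 and 54.6 CPM, but its log2 fold change was -0.20 over all 961 barcodes, where that of Fcgr2b was -0.012 against -0.82 in AM-low barcodes.

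Genes of survival and adhesion had list medians near 0. Of 11 survival genes, Csf1r and Bcl2a1b were higher without overlap and the median log2 fold change was 0.04. Csf1r was at 562, 510.1 and 625 CPM with IgG1 and 659.9, 700.0 and 751 CPM with ipilimumab. Bcl2a1b, an inhibitor of apoptosis from a family of near-identical copies whose reads cannot be assigned with certainty, was at 199.995, 176 and 178 CPM against 257, 329 and 286 CPM. Of 17 adhesion genes, Itga4, a chain of the integrin VLA-4, was higher, and Itgb7 and Ccr2 were lower. Itga4 was at 1062, 687 and 1112 CPM against 1268, 1316 and 1209.7 CPM.

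Of 16 cytokine and chemokine genes only Ccl9 separated the groups, at 256, 275 and 277 CPM with IgG1 and 217, 115 and 235 CPM with ipilimumab, with a log2 fold change of -0.53 that ran from -0.70 to -0.26 as single mice were left out and was -0.081 over all 961 barcodes. There, Il1b and Il6, which encode inflammatory cytokines, were the 2 of 19 that separated the groups, with Il1b at 396, 368 and 353 CPM against 555, 453 and 621 CPM. None of 10 efferocytosis and scavenger genes did. Of 10 profibrotic macrophage genes, Spp1 and Cd9 were higher without overlap. The median was 0.26, with a range of 0.14 to 0.41 as single mice were left out. Spp1, which encodes osteopontin, was at 4.76, 7.87 and 4.84 CPM against 22.3, 13.4 and 26.0 CPM, a low level beside the 284 to 1243 CPM of all selected barcodes together. Cd9, a tetraspanin, was at 276, 373 and 342 CPM against 530.3, 716 and 517 CPM. AM-rich barcodes express both genes, and the log2 fold changes of Spp1 and Cd9, at 1.77 and 0.83 in AM-low barcodes, were 0.67 and -0.14 over all 961 barcodes. The listed alveolar macrophage genes summed to 124, 163 and 187 CPM with IgG1 and 206, 330 and 225 CPM with ipilimumab in AM-low barcodes, most of it Abcg1 at 192 CPM. Their part in the Spp1 and Cd9 values was not tested.

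Immediate early genes, which also respond to tissue digestion, were lower in 14 of 16 tested, with a median log2 fold change of -0.29. The median ran from -0.40 to -0.16 as single mice were left out. Fos, Fosb and Atf3 were lower without overlap and Btg2 higher. Fos was at 905, 787 and 1192 CPM with IgG1 and 761, 627 and 581 CPM with ipilimumab (edgeR adjusted p = 0.368). Of 9 complement and coagulation genes, C5ar1, the receptor of complement C5a, was higher at 103, 94.4 and 75.8 CPM against 109, 128 and 173 CPM but with a log2 fold change of 0.016 over all 961 barcodes, and F13a1 and Serpinb2 were lower. Of 4 tested cell division genes, Top2a was higher, and the median of 0.30 ran from -0.43 to 0.46 as single mice were left out. Over all 961 barcodes 10 of 10 tested cell division genes had fold changes above 0, with a median log2 fold change of 1.005, and Birc5 and Pclaf were higher without overlap.

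Markers of some other lung cells differed by antibody in the AM-low barcodes and were uneven between mice. Alveolar type 2 cell genes, led by Sftpc, summed to 1.55, 4.29 and 1.58 CPM with IgG1 and 25.9, 3452 and 7.43 CPM with ipilimumab. Fibroblast genes, led by Mgp, summed to 0, 3.22 and 3.16 CPM against 95.6, 124 and 6.19 CPM, and globin genes reached 962 CPM in ipilimumab replicate 3. The type 2 cell and fibroblast sums were higher with ipilimumab without overlap (exact permutation p = 0.1 each), while airway sums overlapped. Free RNA held type 2 cell genes at 197, 261 and 16.8 CPM with IgG1 and 2549, 725 and 456 CPM with ipilimumab. Fibroblast genes overlapped in free RNA. The part of barcodes with such markers, or of free RNA, in the differences above was not tested. The values of the classical and interferon lists lay on the same side with at least 3 of the 4 gate genes required (587 barcodes, 30 of them AM-rich), with medians of -0.54 and -0.43, although 2 of 12 classical genes (F13a1 and Plac8) then separated the groups in place of 7, and 5 of 13 interferon-stimulated genes did, all lower. Of all 7714 genes tested in that gate, 452 were lower and 433 higher without overlap. The profibrotic list turned to -0.40 there.

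**Figure D5:**
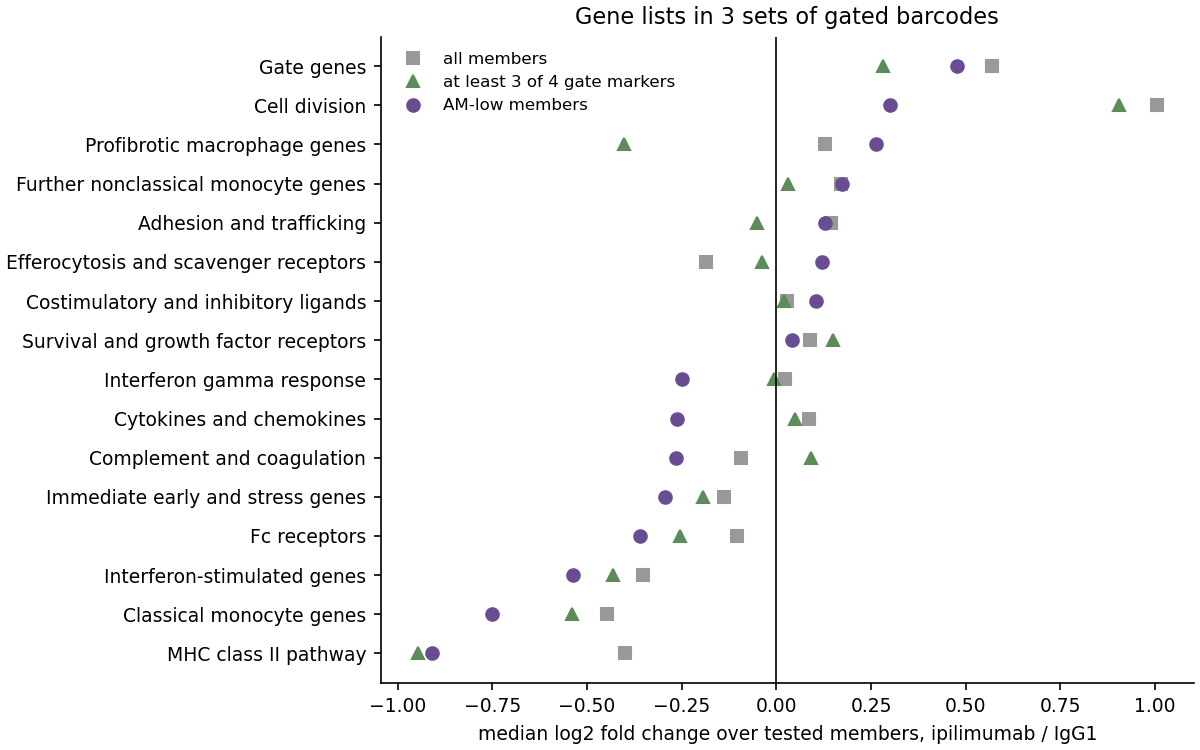
Median log2 fold change of ipilimumab over IgG1 across the tested genes of 16 lists, for all 961 barcodes (squares), barcodes with at least 3 of 4 gate genes (triangles) and AM-low barcodes (circles). The class II, classical monocyte, interferon-stimulated, Fc receptor and immediate early lists lie left of 0 in all 3 sets, while the gate genes are shown as a description, and the profibrotic, interferon gamma, cytokine, complement, adhesion and efferocytosis lists change side between sets.

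The last comparison asked whether the antibody's effect differed between nonclassical and classical monocytes. With all selected and all classical barcodes, edgeR's test of the interaction called 48 of 9186 genes (0.523%), 8 of them with a higher effect in the selected barcodes. Myo1e, a myosin motor, averaged 293 and 253 CPM with IgG1 and ipilimumab in selected barcodes, and 73.0 and 274 CPM in classical monocytes, a log2 difference of -2.05 with an edgeR adjusted p of 0.0216. Tnip3 averaged 32.1 and 91.5 CPM against 34.2 and 16.1 CPM, a log2 difference of 2.60 with an edgeR adjusted p of 0.0255.

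The test was repeated without the alveolar macrophage barcodes of both gates, which made up 4, 10 and 1 of the classical barcodes with IgG1 and 4, 9 and 8 with ipilimumab. Without barcodes of 5 or more alveolar macrophage UMIs, 0 of 7452 genes were called by edgeR (0%), 583 had an unadjusted p under 0.05, and Bcar3 and C530008M17Rik were not tested. The difference of Myo1e was then 0.09. Those of Tnip3, Myof and Arhgap24 were 2.42, -1.62 and -1.60, against 2.60, -1.63 and -1.06 with all barcodes, with edgeR adjusted p-values of 0.145, 0.394 and 0.155. With all barcodes there were 110 calls without ipilimumab replicate 1, 15 without ipilimumab replicate 2, 11 without ipilimumab replicate 3, 1 without IgG1 replicate 2 and 0 without IgG1 replicate 1 or 3.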

How the data were processed

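Per the labels and the study's methods, right lungs of 3 IgG1-treated and 3 ipilimumab-treated mice were profiled with 10x 3' v3.1 chemistry and mapped to mm10. The authors deposited unfiltered UMI counts per gene and barcode. Cell Ranger is given as 7.0.0 in the submitters' processing notes, the file headers carry a software version of 4, and the study's methods name a further version, so the version is uncertain. The study's later steps (ambient RNA removal and clustering) are not part of these counts, and free RNA was not subtracted here.

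The members, gene lists and tests were chosen with earlier results of these data known, and the split by alveolar macrophage UMIs was added after the values were seen. Barcodes were filtered and gated as given above (Python 3.11.15, scipy 1.17.1). Classical monocytes met the same quality limits, had fewer than 2 gate genes, at least 2 of Ly6c2, Ccr2, F13a1 and Vcan, at least 5 Lyz2 UMIs, fewer than 5 C1q UMIs, the same S100 limit and no Flt3, Cd79a or Cd3e. C1q macrophages had at least 10 C1q UMIs, a UMI of Cx3cr1 or Ms4a7, and no Marco, Krt79, Cd79a or Cd3e. No doublet caller was run. Total depth per library and selected barcodes per mouse are given above, and the number of barcodes limits the precision of single genes.

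Counts were summed per mouse and tested with edgeR 4.0.16 (R 4.3.3, filterByExpr, TMM, quasi-likelihood). A call needed a Benjamini-Hochberg adjusted p below 0.05 together with a log2 fold change beyond 0.3 in either direction. The interaction used sums of both monocyte types in 1 model. Shares were compared by two-sided exact permutation tests over mice. DESeq2 1.42.0, other scalings and filters, thinning, stricter gates, a replicate block and each mouse left out were alternatives. The test was checked on simulated counts of all members, where edgeR recovered 61 of 100 genes changed 2-fold and 100 of 100 changed 4-fold among 9822 genes, with 11 false calls. For the interaction (9117 genes) it recovered 7 of 100 and 81 of 100, with 7 false calls. The simulated spread between mice was fixed rather than estimated from these mice. Only genes with many UMIs were changed, and AM-low barcodes were not simulated. In the real counts Rhoj, Timp3, Ramp2, Ly6c1 and Cd34, with log2 fold changes of 2.04 to 2.85, were not called. An absence of calls therefore does not exclude 4-fold changes. Mice within a group are separate animals by the labels.

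Genes were named by rule: gate and marker genes, called genes of each of 17 lists and otherwise up to its 4 most abundant, the 10 genes with the smallest p and no overlap where fewer than 10 were called, the 10 leading interaction genes, and the 10 highest and 10 lowest against classical monocytes. Other list genes named for groups that did not overlap, and genes named from the AM-low comparison or by DESeq2, were chosen after their values were seen.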

Additional observations from a re-analysis of the deposited data

Results flagged for a closer look

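For 10 genes the effect of ipilimumab differed between all selected barcodes and classical monocytes by edgeR's interaction test, each with an adjusted p under the threshold. The log2 difference, selected barcodes minus classical monocytes, was -2.05 for Myo1e, -2.06 for Bcar3, -1.28 for Cd164, -2.34 for C530008M17Rik, 2.60 for Tnip3, -1.60 for Sgk1, -1.63 for Myof, -1.17 for Atxn1, -1.06 for Arhgap24 and -1.18 for Lpp. In 9 of these 10 the classical monocytes had the higher effect, and their mean level was higher with ipilimumab, for example 62.7 and 205 CPM with IgG1 and ipilimumab for Bcar3 and 190 and 534 CPM for Sgk1. Without alveolar macrophage-rich barcodes 8 of the 10 could be tested and none of these was called. Their log2 differences were then 0.09 for Myo1e, 0.19 for Cd164, 0.59 for Atxn1, -0.33 for Sgk1, -0.64 for Lpp, -1.62 for Myof, -1.60 for Arhgap24 and 2.42 for Tnip3. Bcar3 and C530008M17Rik were not tested there.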

How the results depend on the processing

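The log2 ratio of the share of selected barcodes (0.24) ran from -0.0532, without ipilimumab replicate 2, to 0.39 as single mice were left out. It was 0.71 with barcodes thinned to 1000 UMIs, 0.57 with at least 3 of 4 gate genes and 0.071 as a share of barcodes with a UMI of Csf1r, Lyz2 or C1qa. Without barcodes that had 2 or more UMIs of another lineage's markers it was 0.15. The difference between the groups in the log2 number of selected barcodes for each classical monocyte (0.98) ran from 0.60 to 1.35 as single mice were left out. Without AM-rich barcodes in both gates it was 1.36. The number of genes called in all selected barcodes (0) was 13 with DESeq2, 234 with no filter on low counts, 2 without barcodes over 3 times the median UMIs, and 0 to 4 as single mice were left out. In AM-low barcodes (0) it was 45 with DESeq2, 312 with no filter, and 0 to 3 without single mice, the 3 being without ipilimumab replicate 1. The 48 interaction calls became 385 with no filter and 0 without AM-rich barcodes. Without single mice they were 0, 1 and 0 (IgG1 replicates 1 to 3) and 110, 15 and 11 (ipilimumab replicates 1 to 3), and with AM-low barcodes 0 to 10. Over all selected barcodes the log2 fold changes of Tcf7l2, Fcgrt and Cd9 were -0.054, -0.20 and -0.14, against positive values in AM-low barcodes. Without AM-rich barcodes the interactions of Myo1e, Cd164 and Atxn1 were 0.088, 0.19 and 0.59. These 6 were the only reversals in 924 gene alternatives, of which 44 lost and 38 gained a call. With a replicate block the log2 ratio of the share was 0.24 and the log2 difference in selected barcodes for each classical monocyte was 0.98 (exact sign-flip p = 0.5 each). The calls with this block were 0 in all selected and 1 in AM-low barcodes. In all selected barcodes same-numbered mice correlated at -0.01, 0.05 and -0.26, and differently numbered mice at -0.32 to 0.32. In AM-low barcodes the values were 0.08, 0.10 and 0.25 for same-numbered mice and -0.17 to 0.09 for differently numbered mice. Whether the numbers paired the mice was not settled by these values. The share of AM-low barcodes with classical genes kept its direction in each of its alternatives. The causes of the gene reversals were not tested. Between 74 and 174 AM-low barcodes per mouse limit single genes.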

Other observations

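Among the 45 genes that DESeq2 called in AM-low barcodes, and that edgeR did not, were genes outside the lists, named here after their values were seen. Irak3, an inhibitor of Toll-like receptor signalling, was at 117, 111 and 106 CPM with IgG1 and 166, 235 and 195 CPM with ipilimumab. Nfkbiz, a nuclear regulator of NF-κB targets, was at 427, 371 and 458 CPM against 569, 591 and 626 CPM, and Fgr, a Src family kinase, at 535, 407 and 558 CPM against 764, 757 and 776 CPM. None of the ipilimumab mice reached the IgG1 range in these 3 genes.

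Genes lower with ipilimumab included Tgfbi, an extracellular matrix protein, at 287, 371 and 268 CPM with IgG1 and 191, 112 and 209 CPM with ipilimumab. Vim, which encodes vimentin, was at 862, 1145 and 1169 CPM against 755, 618 and 790.0 CPM. Ly86, which encodes the RP105 partner MD-1, was at 286, 253 and 220.1 CPM against 168, 130.1 and 179 CPM. The groups did not overlap in these 3 genes either.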
